A study of Mus musculus with 4 samples.

Results

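The osteoblast transcription factors Runx1, Runx2, Runx3, Cbfb, Sp7 and Atf4 were described over every tissue spot of mouse head sections at embryonic day 14.5 (E14.5) and 15.5 (E15.5). The 6 genes were taken by symbol from the 19465 genes in the files, and all 6 were found. The heads were from wild-type C57BL/6J embryos with no treatment, and the groups were set by stage. Depth and the tissues caught also differed between areas and sections. Formalin-fixed, paraffin-embedded coronal sections through the middle of the palate were placed on Visium slides, on which each spot of 55 µm captures the RNA of several cells. Each stage had 2 capture areas, 1 with a single section (replicate 1) and 1 with 3 sections (replicates 2 to 4), here called A, B and C. Sections of 1 area share a library. The question was where in the head each factor was detected and whether this differed between the stages.

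Runx proteins bind DNA through the Runt domain, and Cbfb, which does not bind DNA itself, stabilises that binding as their shared partner. Runx2 commits mesenchymal cells to the osteoblast lineage and drives chondrocyte maturation, and Sp7 (osterix), a zinc finger factor, acts downstream of Runx2 and is needed for osteoblasts to form. Atf4, a leucine zipper factor of the amino acid and stress response, supports collagen synthesis in mature osteoblasts. Runx1 is best known from blood stem cells, hair follicles and oral epithelium, and Runx3 from sensory neurons, T cells and cartilage.

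Total UMIs (unique molecular identifiers, which count captured molecules) per area ranged from 15438992 to 109127953 over 6357 tissue spots in all. The median per spot was 6752 in E14.5 replicate 1 and from 45058.5 to 64051 in the other 3 areas. Among the sections of replicates 2 to 4 at E14.5, section A had a median of 10038 and sections B and C had 65616 and 59411. Levels are given as CPM, the UMIs of a gene per 1000000 UMIs of a section or region. The assay reads each gene through its own probes, so levels were compared between places and not between genes.

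Spots were assigned to 12 regions by marker genes that did not include the 6 factors, and a spot is called a bone-marker spot, for example, when its bone score exceeded 1 and led all other scores. There were 559 bone-marker spots (8.79% of tissue spots), 508 cartilage-marker spots, 218 basal epithelium spots, 447 cornifying epithelium spots, 272 palatal-oral mesenchyme spots, 111 tooth germ spots and 27 ganglion spots, and 1814 spots stayed unassigned. The bone markers Ibsp, Ifitm5, Alpl, Phex, Dmp1, Smpd3 and Bglap summed to between 8.38-fold and 19.3-fold more in bone-marker spots than in other spots of the 4 areas. Several of them are known targets of Runx2 or Sp7. Of the bone-marker spots, 168 (30.1%) lay close to the score limit. A spot mixes cells, so fewer cells of a type and less RNA per cell cannot be told apart.

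Runx1 (ENSMUSG00000022952) lies at chr16:92601466-92826149 on the minus strand of GRCm38, Runx2 (ENSMUSG00000039153) at chr17:44495987-44814797 (minus) and Runx3 (ENSMUSG00000070691) at chr4:135120652-135177990 (plus). Cbfb (ENSMUSG00000031885) lies at chr8:105170674-105217989 (plus), Sp7 (ENSMUSG00000060284) at chr15:102356606-102367182 (minus) and Atf4 (ENSMUSG00000042406) at chr15:80255184-80257541 (plus).

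The upstream promoters of the 3 Runx genes carry the sequence that Runx proteins themselves bind, and the 30 bases that hold it are shown because these genes are the ones compared here. Promoters were RefSeq windows of GRCm38.p6 from 250 bases before to 50 bases after a start, with 5 of the 6 genes listed. Capitals mark ACCACA, the reverse complement of the Runx core motif TGTGGT. The coordinates of the windows are chr16:92826025-92826054 (minus strand) for Runx1, chr17:44814583-44814612 (minus) for Runx2 and chr4:135120503-135120532 (plus) for Runx3.
Runx1: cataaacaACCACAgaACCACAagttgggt
Runx2: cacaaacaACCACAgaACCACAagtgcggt
Runx3: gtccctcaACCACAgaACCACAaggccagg

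The 3 windows share an unbroken stretch of 18 bases, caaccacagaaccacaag, with both copies of the motif on the same strand, 2 bases apart. The shared stretch begins 26 bases after the start in Runx1, 21 bases after it in Runx2 and 136 bases before it in Runx3. The same pair of motifs was found in 4 of 32851 promoters, either strand (0.0122%), and the fourth belongs to Gm16225, whose window overlaps that of Runx3 on the opposite strand. A single TGTGGT on either strand was found in 16.8% of all promoters, and neither Cbfb nor Atf4 had one in these windows.

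**Figure D1:**
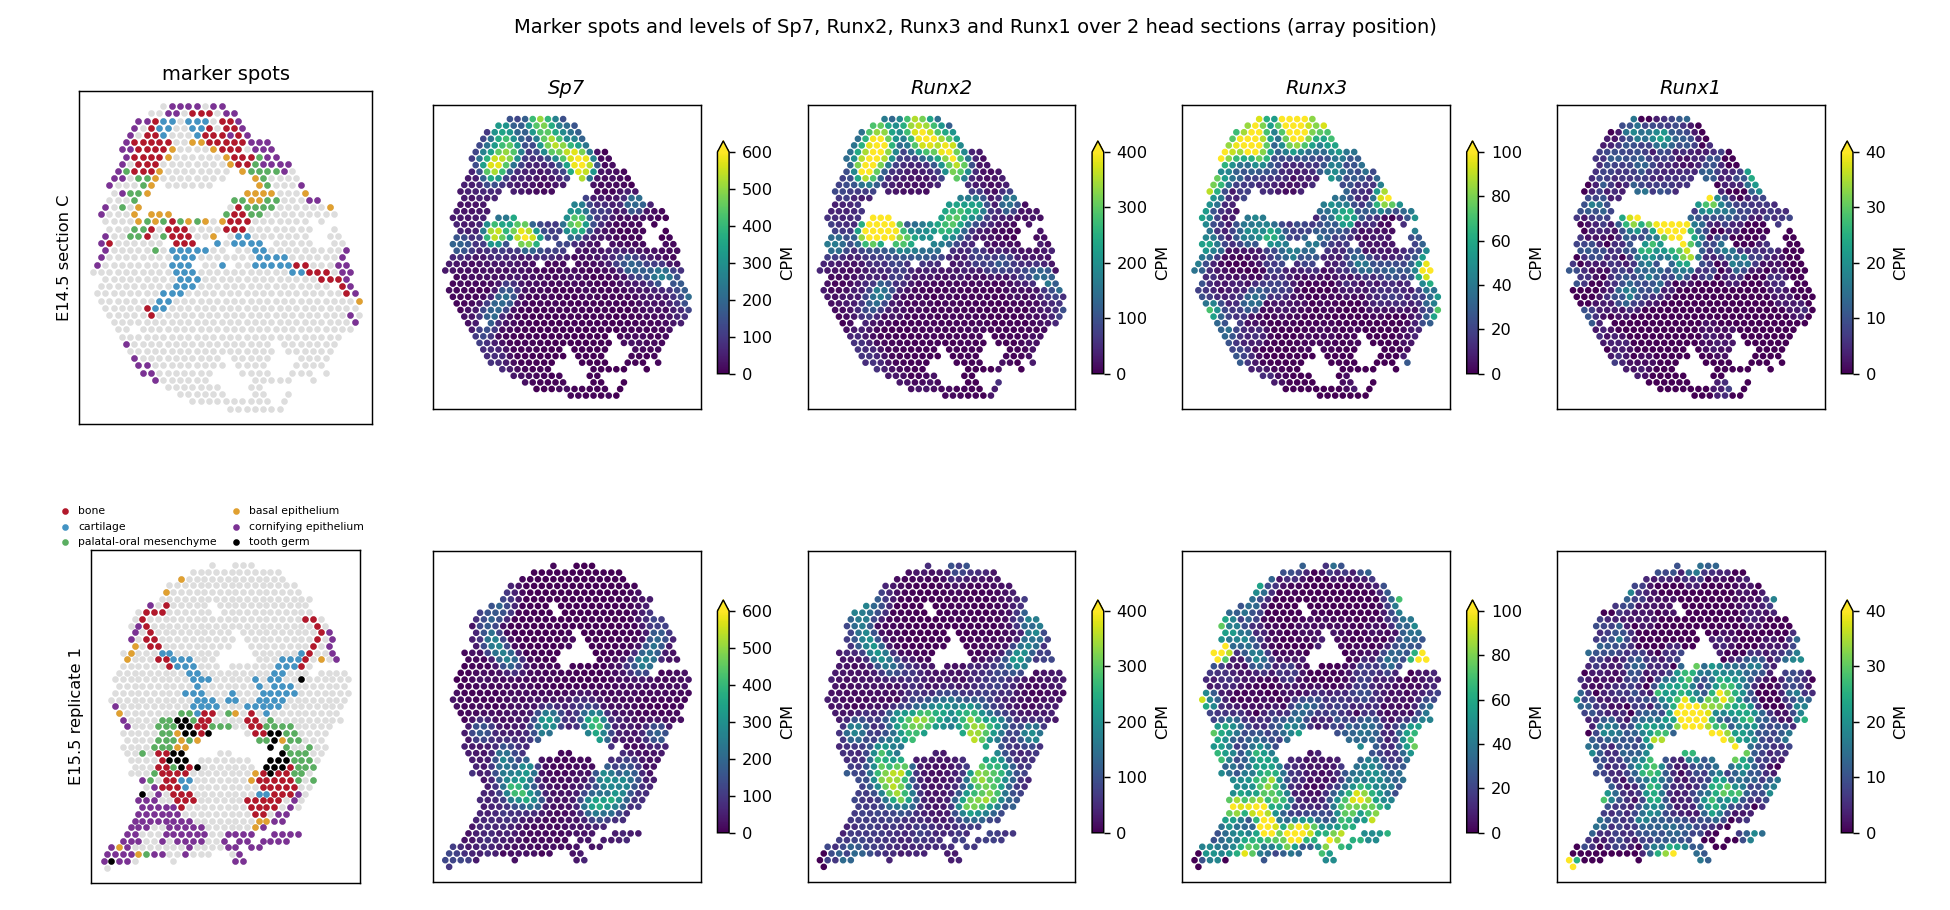
Array maps of E14.5 section C (top) and E15.5 replicate 1 (bottom): the left panels colour the spots of 6 marker regions over all other tissue spots in grey, and the others colour each spot by the CPM of Sp7, Runx2, Runx3 or Runx1 summed over the spot and its touching spots, with each colour scale capped at the top value of its bar. Sp7 and Runx2 are high over the bone-marker spots, Runx3 is also high along the cornifying epithelium at the surface. Over all sections, 8.31% of the spots with the highest Runx1 were bone-marker spots, against 75.1% for Sp7 and 8.90% of all spots.

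All 6 factors were higher in bone-marker spots than in the other tissue spots of the same capture area, Sp7 and Runx2 by far the most. Sp7 was 10.4-fold and Runx2 5.98-fold higher, Runx3 2.83-fold, Cbfb 1.57-fold, Runx1 1.43-fold and Atf4 1.31-fold. Bone-marker spots held from 4.97% to 12.6% of all UMIs of an area. They held from 45.5% to 52.1% of its Sp7 UMIs, from 32.4% to 39.5% of its Runx2 UMIs and from 19.3% to 26.0% of its Runx3 UMIs.

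Sp7 in bone-marker spots was 397, 430, 591 and 501 CPM in E14.5 replicate 1 and sections A, B and C, and 348, 476, 409 and 472 CPM in E15.5 replicate 1 and sections A, B and C. Its mean over the 8 sections was 453 CPM ± 74.5 (SD). In the same order, Runx2 was 293, 325, 255.7 and 359 CPM at E14.5 and 312, 413, 317 and 338 CPM at E15.5, with a mean of 327 ± 46.5. E14.5 section B thus had the highest Sp7 and the lowest Runx2, and the lowest bone value of either gene was above its highest value in any other region. In the forebrain, which forms no bone, Runx2 was between 9.35 and 24.8 CPM and Sp7 between 4.94 and 25.5 CPM in 7 sections. After each spot was thinned to 5000 UMIs, 83.7% of 527 bone-marker spots had a Sp7 UMI and 77.6% a Runx2 UMI, against 4.78% and 6.74% of 712 forebrain spots. Without thinning the shares were 97.5% and 95.2% of bone-marker spots and 25.6% and 30.7% of forebrain spots. In the thinned bone-marker spots, 67.0% had UMIs of both genes and 5.69% of neither.

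The other Runx genes were read from fewer UMIs in bone. Runx3 in bone-marker spots was 54.7, 51.8, 58.8 and 58.5 CPM at E14.5 and 55.7, 38.0, 51.7 and 36.4 CPM at E15.5, in the same order of sections. Runx1 was 19.5, 21.1, 6.33 and 7.69 CPM at E14.5 and 14.6, 14.04, 17.2 and 16.0 CPM at E15.5, from 372 UMIs in all. The low Runx1 of E14.5 sections B and C was not particular to bone: over all tissue these sections had 5.12 and 6.47 CPM, against 19.0 in section A of the same library and between 10.3 and 17.1 in the other sections.

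Their partner Cbfb in bone-marker spots ran from 211 to 285 CPM and Atf4 from 328 to 373 CPM. Both genes were detected throughout the head: in forebrain spots Cbfb was 104 CPM ± 19.7 (SD, n = 7) and Atf4 still between 228 and 324 CPM.

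UMIs were summed over the bone-marker spots and over the other spots of each area and compared by the quasi-likelihood test of edgeR, with the area as a block. All 6 factors passed a false discovery rate of 0.1 as higher in bone-marker spots. Of all 13873 genes tested, 25.0% passed as higher and 27.5% as lower, so passing alone was common in this comparison. The log2 fold change was 3.38 (SE 0.18, adjusted p = 2.5e-05) for Sp7 and 2.58 (SE 0.17, adjusted p = 5.4e-05) for Runx2. It was 1.5 for Runx3, 0.66 for Cbfb, 0.52 for Runx1 and 0.39 for Atf4, with adjusted p between 0.00045 and 0.018. No call among the 6 changed in the 11 alternative settings, in which the log2 fold change of Sp7 ran from 3.19 to 4.04, that of Runx2 from 2.38 to 3.04 and that of Runx1 from 0.36 to 0.67. Without TMM scaling, the median of all genes shifted from -0.02 to -0.18 and the calls from 3462 higher and 3822 lower to 2004 higher and 5894 lower, and all 6 factors stayed above that shift, Atf4 at 0.24. Markers of osteoclasts, the bone-resorbing cells, were also high in bone-marker spots. All 7 osteoclast markers were detected there, with Oscar at 0 in 1 of the 4 areas. They summed to between 610 and 1752 CPM, against between 139 and 952 CPM in cartilage and between 42.8 and 98.1 CPM in forebrain spots, and their part in the levels of the 6 factors was not tested.

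Among all spots with a bone score above 1, the factors followed that score in different ways. These spots were taken by the bone score alone, so some of them were assigned to other regions. From the 245 spots with a bone score of 1 to 1.5 to the 225 spots with a score above 2, mean Sp7 went from 326 to 530 CPM, Runx2 from 281 to 349 CPM and Atf4 from 326 to 372 CPM. Runx3 (52.1 and 47.6 CPM), Cbfb (248 and 233.8 CPM) and Runx1 (15.1 and 13.7 CPM) were not higher in the top spots, and their section ranges overlapped. Separate patches of bone also differed. Among the 22 of 65 patches of touching bone-marker spots with at least 10 spots, Runx2 ran from 152 to 503 CPM, a 3.31-fold range, and Sp7 from 279 to 741 CPM, a 2.66-fold range. The log2 ratio of Runx2 to Sp7 ran from -1.38 to -0.05 among these patches, with a median of -0.41.

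**Figure D2:**
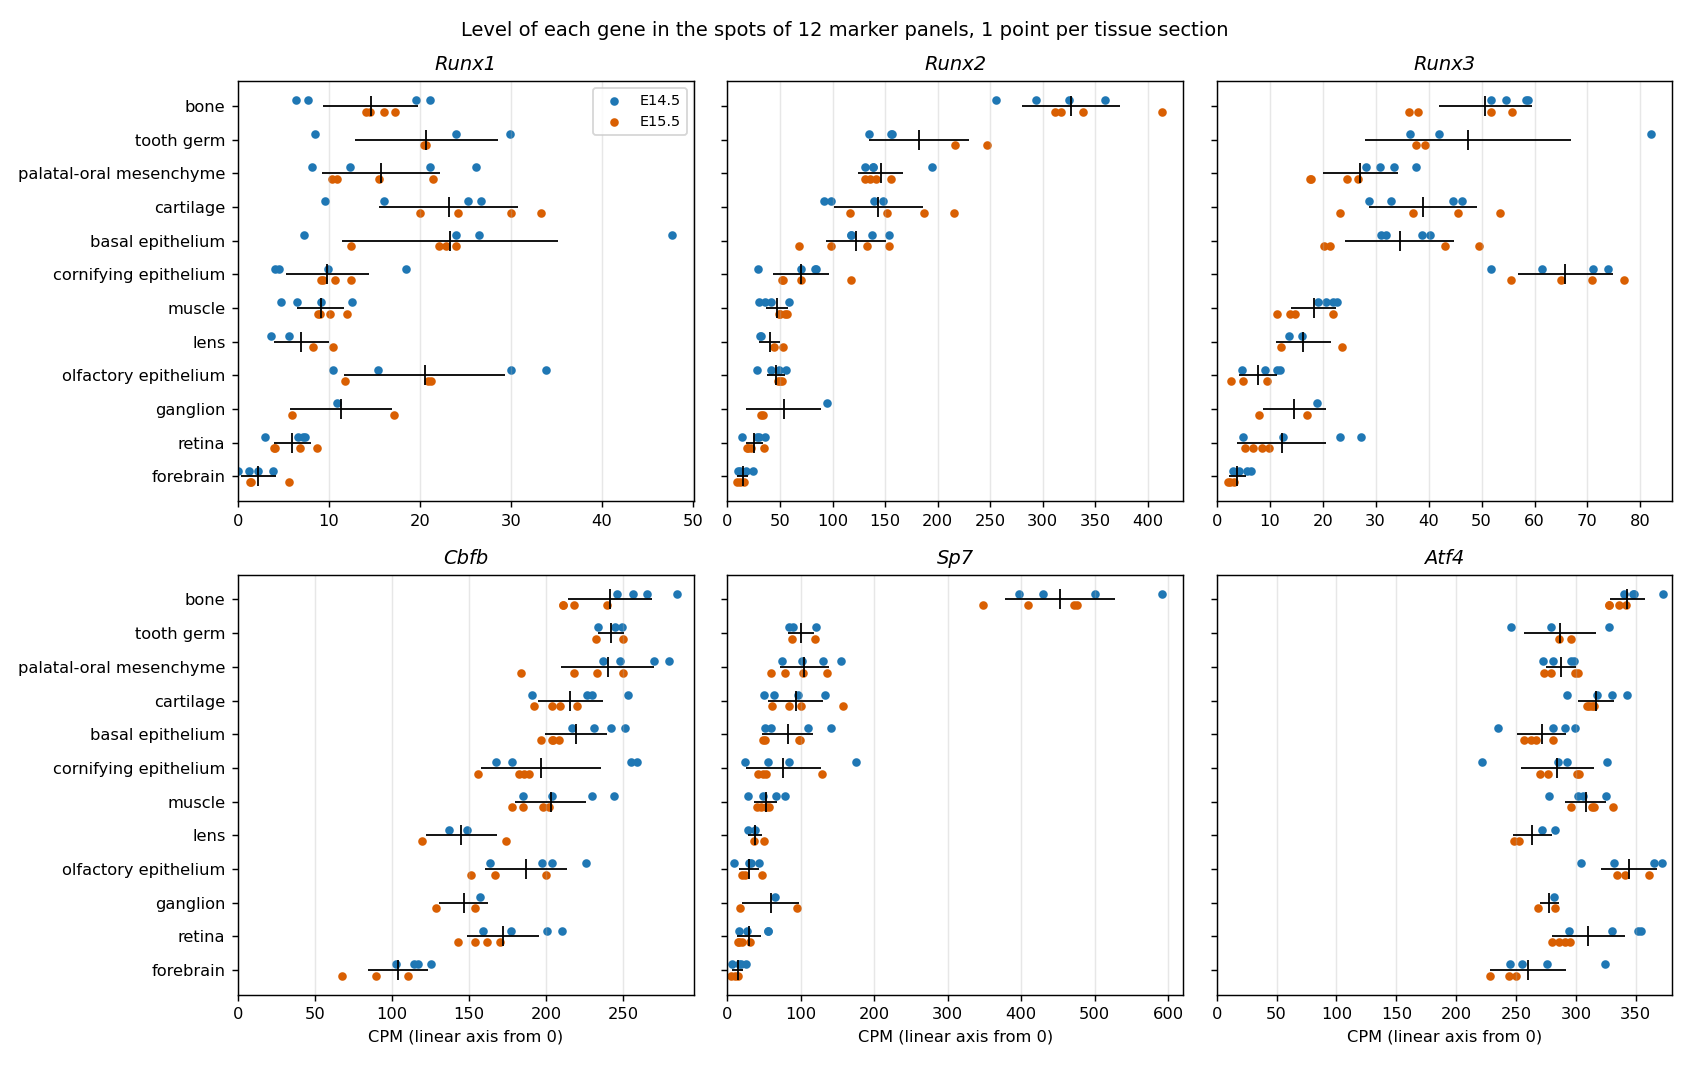
Level of each factor in CPM (linear axes from 0) in the spots of 12 marker regions, with 1 point per tissue section coloured by stage and black bars for the mean and SD over sections. Sp7 and Runx2 stand apart in bone, Runx3 is highest in cornifying epithelium and bone, Runx1 is highest in basal epithelium and cartilage, and Cbfb and Atf4 vary least between regions.

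The order of regions differed between the factors. For Sp7, bone (453 CPM) was followed by palatal-oral mesenchyme (105), tooth germ (100.3), cartilage (92.9), basal epithelium (82.2) and cornifying epithelium (76.2), and neighbours below bone lay within 1 SD of each other. For Runx2, bone (327 CPM) was followed by tooth germ (182 ± 47.6, SD, n = 5), palatal-oral mesenchyme (146), cartilage (144) and basal epithelium (122), again within 1 SD of each other, and cornifying epithelium (70.1) was lower than basal epithelium in 8 of 8 sections. For Runx3, cornifying epithelium (65.8 CPM ± 8.97) was above bone (50.7 ± 8.75) in 8 of 8 sections, and tooth germ (47.5), cartilage (39.0) and basal epithelium (34.5) followed within 1 SD of their neighbours. For Runx1, basal epithelium (23.3 CPM), cartilage (23.2), tooth germ (20.7) and olfactory epithelium (20.5) were not separated by their spread. For Cbfb, tooth germ (242 CPM), bone (241) and palatal-oral mesenchyme (240) were alike within 1 SD. For Atf4, olfactory epithelium (344 CPM) and bone (343) led, and bone was above cartilage (317 CPM) in 7 of 8 sections.

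Over the first steps away from bone, Sp7 fell off faster than Runx2. One step from the nearest bone-marker spot, mean Runx2 was 176 CPM and mean Sp7 172 CPM, against 327 and 453 CPM in the bone-marker spots. At 2 steps Runx2 was 97.4 and Sp7 67.8 CPM, at 3 steps 63.8 and 42.6 CPM. Farther out this did not go on. From 4 to 5 steps to 6 to 8 steps, Runx2 went from 42.9 to 31.2 CPM and Sp7 from 26.6 to 26.8 CPM. At 9 or more steps Runx2 was 43.1 ± 55.3 CPM and Sp7 29.3 ± 36.9 CPM (SD, n = 8). The highest there were E14.5 section A (Runx2 138, Sp7 74.3 CPM) and E15.5 section C (124 and 101 CPM). The log2 ratio of the level at 1 step to that in bone-marker spots was -0.93 ± 0.33 for Runx2 and -1.43 ± 0.26 for Sp7 (SD, n = 8). It was less negative for Runx2 in 8 of 8 sections, by between 0.24 in E14.5 replicate 1 and 0.60 in E15.5 replicate 1, with a mean of 0.49 ± 0.11 (SD). A two-sided exact sign-flip permutation test over the 8 sections gave p = 0.0078, the smallest it can give. With the 4 capture areas as units the difference was 0.47 and in the same direction in 4 of 4, where the smallest exact permutation p is 0.13. At 2 steps the difference was 1.02. The bone-marker spots were chosen by markers that include genes with maps close to that of Sp7, and the part of this in the difference was not tested. Of the spots at 1 step, 37.2% were unassigned, 13.1% cartilage and 10.8% palatal-oral mesenchyme spots, so the ring is not one tissue.

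Runx3 went from 50.7 CPM in bone to 37.4 at 1 step and 26.1 at 2 steps, and Cbfb from 241 to 218 and 196 CPM. Runx1 stayed near 14.6, 16.4 and 14.2 CPM, and Atf4 went from 343 to 293 CPM at 1 step and was 292 CPM at 2. At 9 or more steps Runx3 was 17.8 ± 24.0 CPM and Runx1 7.61 ± 9.43 CPM (SD, n = 8). Both were highest there in E14.5 section A, at 72.3 and 22.6 CPM, where Runx3 was above its level in bone-marker spots of any section.

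**Figure D3:**
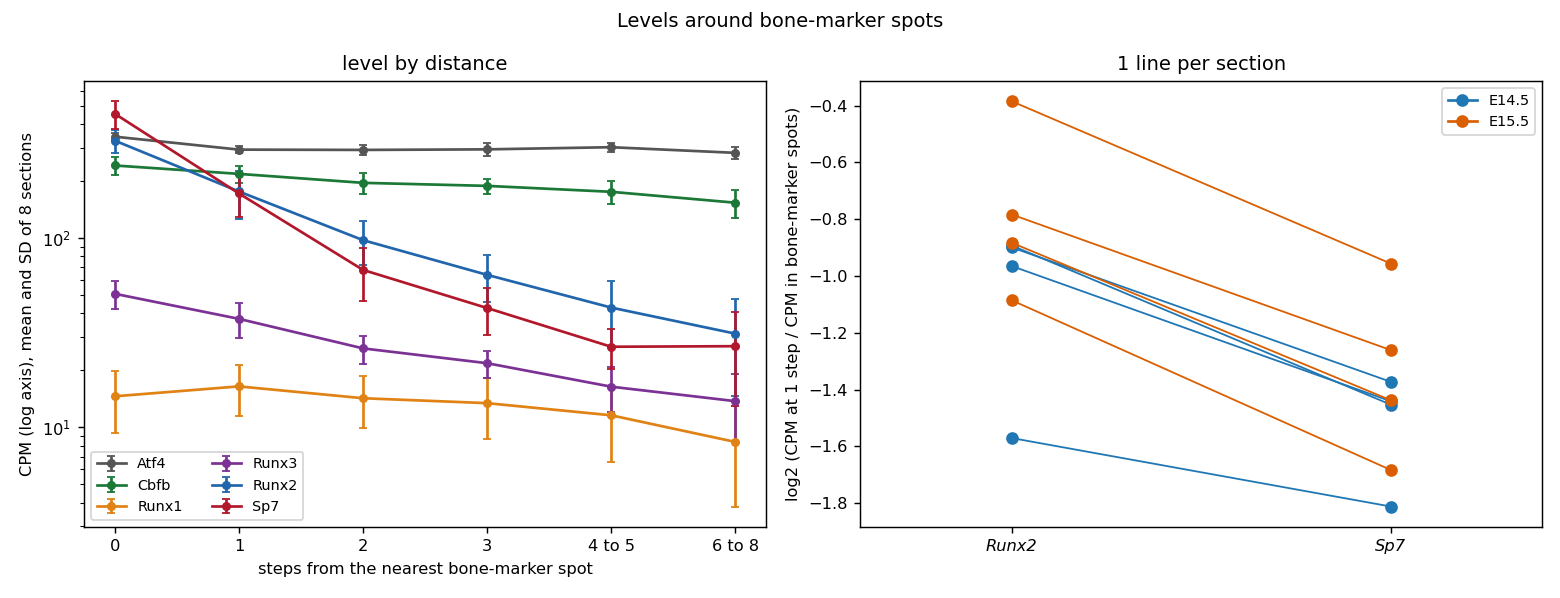
Left, mean and SD over 8 sections of the level of each factor in CPM (log axis) against array steps from the nearest bone-marker spot, up to 6 to 8 steps. Right, log2 of the level at 1 step over that in bone-marker spots for Runx2 and Sp7, with 1 line per section coloured by stage; every line goes down from Runx2 to Sp7, by 0.49 on average.

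The balance of Runx2 to Sp7 also changed by region. Since probes differ between genes, the ratio was compared between places and its own value carries no meaning. In bone-marker spots log2 of Runx2 over Sp7 was -0.47 ± 0.32 (SD, n = 8). In cartilage it was 0.67 ± 0.28, in basal epithelium 0.65 ± 0.41 and in palatal-oral mesenchyme 0.53 ± 0.40, each above bone in 8 of 8 sections. Tooth germ had 0.84 ± 0.42 in 5 sections, all above bone, and was not tested, since regions with under 6 sections were left out. Of 9 regions compared with bone over sections by a two-sided exact sign-flip permutation test, all 9 were past an adjusted p of 0.05, with Benjamini-Hochberg adjusted p of 0.014 for cartilage, basal epithelium, palatal-oral mesenchyme, muscle and unassigned spots, and between 0.020 and 0.039 for the other 4. All 9 tests share the same bone-marker spots as reference, so they are not separate results. Those spots were chosen by markers that include Ibsp, Alpl and Ifitm5, which were among the 5 genes most like Sp7. Alpl was also the gene most like Runx2. The part of this choice in the ratio was not tested. Sections of 1 library are not independent. With the capture areas as units the smallest exact permutation p is 0.13, so that none of the 9 could pass. By area, the ratio was above bone in every area measured for 8 of the 9 regions and in 3 of 4 areas for retina, and the mean difference was 1.15 ± 0.13 (SD, n = 4) for cartilage and 0.37 ± 0.14 for muscle. Over sections, the difference from bone was 0.34 ± 0.18 for muscle, 0.39 ± 0.44 for retina and 1.14 ± 0.40 for cartilage.

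In cartilage, 4 of the 6 factors passed as higher than in other spots and none as lower, where 29.7% of 13874 genes passed in either direction. Runx1 had the largest log2 fold change, 1.21 (SE 0.11, adjusted p = 0.00060). Runx1 in cartilage was 25.3, 26.7, 9.60 and 16.1 CPM at E14.5 and 20.03, 24.2, 33.3 and 29.95 CPM at E15.5, and was above the level in bone of the same section in all 8. Runx2 (0.66, SE 0.09, adjusted p = 0.0040), Runx3 (0.66, SE 0.20, adjusted p = 0.061) and Cbfb (0.25, SE 0.06, adjusted p = 0.035) also passed. Runx3 and Cbfb did not pass without E14.5 replicates 2 to 4 (adjusted p = 0.27 and 0.21) or without E15.5 replicates 2 to 4 (0.24 and 0.12). Sp7 had a log2 fold change of -0.09 (adjusted p = 0.41) against all other spots, which include bone. With bone-marker spots left out of the other spots, Sp7 in cartilage was at 0.88 (adjusted p = 0.00040) and Runx2 at 1.29 (adjusted p = 0.00032). With all spots within 2 steps of bone-marker spots left out, which kept 305 of the 508 cartilage spots, Runx2 was at 1.51 (adjusted p = 0.0010) and Sp7 at 0.36 (adjusted p = 0.22). Atf4 did not pass (0.08, adjusted p = 0.42).

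In basal epithelium, marked by Krt5, Krt14 and Trp63, 3 of the 6 factors passed as higher, where 30.7% of 13546 genes passed in either direction. Runx1 was at 47.7, 26.5, 7.20 and 24.0 CPM at E14.5 and 24.0, 22.8, 22.1 and 12.4 CPM at E15.5, with a log2 fold change of 1.10 (SE 0.23, adjusted p = 0.0069). Runx3 (0.52, adjusted p = 0.075) and Cbfb (0.25, adjusted p = 0.081) also passed, but neither did without E14.5 replicate 1, without E14.5 replicates 2 to 4 or without E15.5 replicate 1. Runx1 was then the 1 factor called as higher. Runx2 had 0.40 (adjusted p = 0.16) and Sp7 -0.23 (adjusted p = 0.28). With bone-marker spots left out, 5 of the 6 passed as higher, Runx2 at 0.93 and Sp7 at 0.63 (adjusted p = 0.0090 and 0.019). In that setting 1991 of 13522 genes passed as higher and 2483 as lower.

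In cornifying epithelium, marked by Krt1, Krt10 and Krtdap, Runx3 was the factor that rose: 74.0, 51.8, 61.4 and 71.0 CPM at E14.5 and 76.9, 65.1, 55.5 and 70.8 CPM at E15.5. Its level was above that of basal epithelium in the same section in all 8. Its log2 fold change was 1.63 (SE 0.15, adjusted p = 8.4e-05), and it ran from 1.59 to 2.29 over 13 alternatives, all called. Of the 6 factors 4 passed here, 1 as higher and 3 as lower, and 48.5% of 13669 genes passed in either direction. Runx2 (-0.49), Sp7 (-0.49) and Runx1 (-0.41) passed as lower (adjusted p = 0.039, 0.044 and 0.094), but not with bone-marker spots left out of the other spots, where they were at 0.02, 0.38 and -0.37 (adjusted p = 0.96, 0.14 and 0.13). The call for Runx1 was lost in 11 of its 13 alternatives, that for Runx2 also without E15.5 replicates 2 to 4, and that for Sp7 also without either area of E15.5. Markers of mast cells and macrophages, cells of the blood lineage, were also high in cornifying epithelium. All 5 mast cell markers were detected and summed to between 720 and 2050 CPM in cornifying epithelium and to between 87.3 and 169 CPM in bone, with Cma1 and Tpsb2 the most abundant and Fcer1a at 0 in 1 of the 4 areas. The 7 macrophage markers, none of them at 0, summed to between 325 and 515 CPM there, against between 188 and 266 CPM in bone. Their part in the level of Runx3 was not tested.

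In palatal-oral mesenchyme, Runx2 was 131, 138, 138 and 195 CPM at E14.5 and 131, 142, 155 and 136 CPM at E15.5. Runx2 (log2 fold change 0.73, SE 0.17, adjusted p = 0.016) and Cbfb (0.41, SE 0.10, adjusted p = 0.016) passed as higher, 2 of the 6 factors, where 36.0% of 13629 genes passed. Without E14.5 replicates 2 to 4 Cbfb did not pass (adjusted p = 0.101), which left 1. Sp7 was at 0.03 (adjusted p = 0.92) and at 0.91 (adjusted p = 0.0045) with bone-marker spots left out.

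In tooth germ, 4 of the 6 factors passed as higher, where 25.9% of 13395 genes passed in either direction: Runx2 (1.10, SE 0.15, adjusted p = 0.00016), Runx1 (0.96), Runx3 (0.87) and Cbfb (0.38), the last 3 with adjusted p between 0.0067 and 0.017. Runx2 in tooth germ was 156, 157 and 135 CPM in E14.5 replicate 1 and sections A and B, and 216 and 247 CPM in E15.5 replicate 1 and section B. The lowest of these values, in E14.5 section B, came from 5 tooth germ spots. Sp7 was at 0.12 (adjusted p = 0.67) and at 0.96 (adjusted p = 0.00061) with bone-marker spots left out. With sections as samples, Runx1 and Cbfb did not pass (adjusted p = 0.12 and 0.13), which left 2 called factors, and Cbfb did not pass without E15.5 replicate 1.

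**Figure D4:**
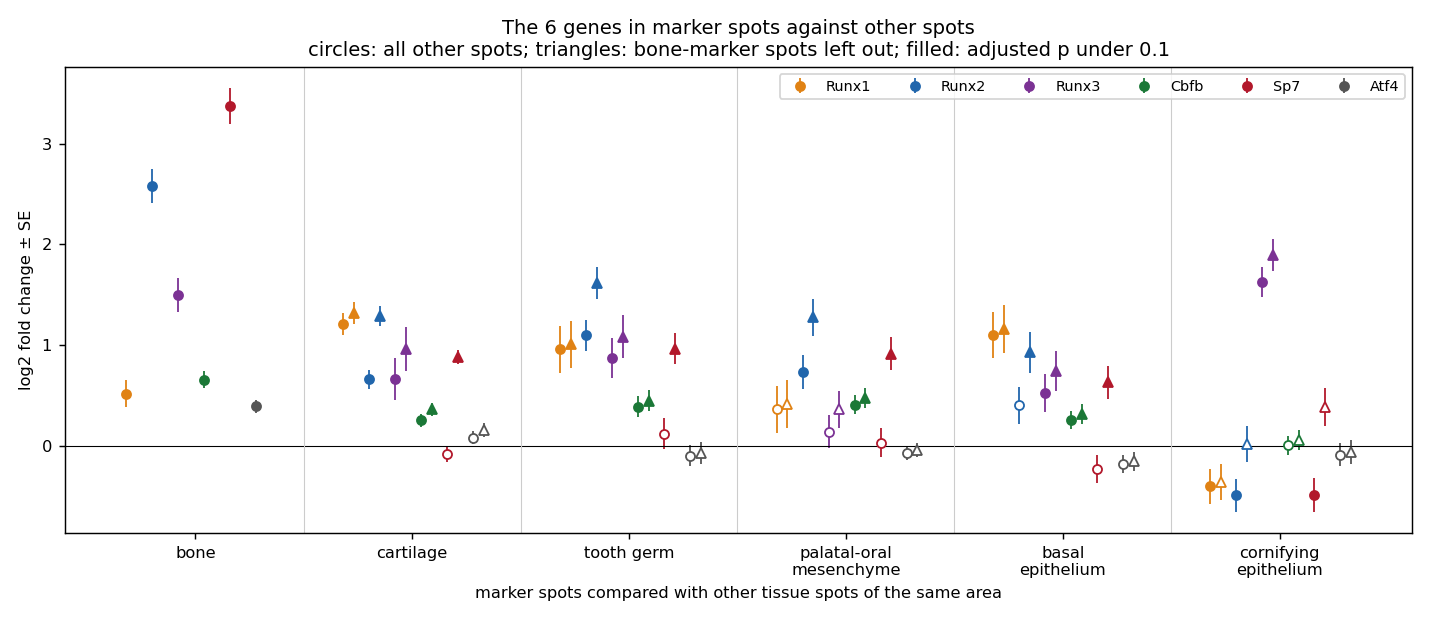
Log2 fold change with its standard error of each factor in the spots of 6 marker regions against the other tissue spots of the same area (circles) or the same without bone-marker spots (triangles); filled symbols passed an adjusted p of 0.1. Bone sets Sp7 (3.38) and Runx2 (2.58) apart, and Runx3 leads in cornifying epithelium (1.63). Leaving out bone-marker spots, where both genes are highest, lowers the level compared against, so Runx2 and Sp7 rise in each of the other 5 regions.

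In ganglia, where Runx1 and Runx3 are known to direct the fate of sensory neurons, few spots were caught. The 27 ganglion spots fell 3, 10, 8 and 6 to the 4 areas, too few for the test, which needed 10 spots in at least 2 areas. The summed ganglion markers, among them Prph and Isl1, were between 3.77-fold and 9.10-fold higher than elsewhere in the 3 areas with at least 5 such spots. Over all tissue, Prph (9270 UMIs) and Isl1 (8484) were the most abundant of these markers. Avil (550) and Tlx3 (17) were sparse, and Drgx was not measured. Over those 3 areas Runx3 was 17.6, 7.90 and 17.1 CPM, from 9, 4 and 2 UMIs, against 24.0, 25.7 and 26.0 CPM in the other spots. Runx1 was 11.7, 5.92 and 17.1 CPM from 6, 3 and 2 UMIs, against 6.99, 10.3 and 14.4 CPM. Runx3 was thus lower than in the other spots in all 3 areas, and Runx1 went both ways. Whether either gene is enriched in ganglia could not be told from so few spots and UMIs. Exact Poisson 95% intervals per section, which cover counting error alone, reached from 2.15 to 20.2 CPM for Runx3 in E15.5 replicate 1 and from 2.07 to 61.8 CPM in E15.5 section A.

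The highest local levels, of spots summed with their touching spots, lay in different places for each factor. Of the 313 spots that made up the top 5% of each section, 75.1% of those for Sp7 and 62.9% of those for Runx2 were bone-marker spots, which made up 8.90% of the spots of all sections. For Runx3, 28.8% were cornifying epithelium (6.41% of spots), 16.6% bone and 13.1% cartilage (8.10% of spots). For Runx1, 22.05% were cartilage and 8.63% olfactory epithelium (3.22% of spots). Basal epithelium (3.43% of spots) and palatal-oral mesenchyme (4.32% of spots) each made up 7.35%. Unassigned spots made up 34.2%, near their 28.7% of all spots. For Atf4, 24.6% were bone, 15.02% muscle (12.1% of spots) and 7.67% olfactory epithelium, and for Cbfb 23.6% were bone.

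Between the stages none of the 6 factors passed a test. Over all tissue spots, 0 of 15609 genes passed (0% in background), with 930 at an unadjusted p under 0.05 and 28 called by DESeq2. Runx2 had 45.1, 111, 74.7 and 88.7 CPM in E14.5 replicate 1 and sections A, B and C, and 83.8, 140, 147 and 109 CPM in E15.5 replicate 1 and sections A, B and C. The groups overlapped, and the log2 difference between areas (E15.5 minus E14.5) was 0.65 (SE 0.36, adjusted p = 0.77). Sp7 had 43.4, 97.0, 123 and 102 CPM at E14.5 and 64.7, 137, 122 and 105 CPM at E15.5, with a difference of 0.19 (SE 0.47, adjusted p = 0.92). The other 4 factors had differences between -0.04 and 0.38 (adjusted p from 0.80 to 0.98). In both stages replicate 1 had the lowest Runx2 and Sp7 over all tissue. These levels mix unlike shares of tissue. Forebrain spots held 37.6% (E14.5) and 16.8% (E15.5) of all UMIs in replicate 1, against 10.8% and 6.04% in replicates 2 to 4. Bone-marker spots held 4.97% and 8.88%, against 10.7% and 12.6%. The part of this in the whole-tissue levels was not tested.

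Within bone-marker spots 0 of 13362 genes passed (0%), with 143 at an unadjusted p under 0.05 and 3 called by DESeq2. The stage differences were 0.15 (SE 0.24) for Runx2, -0.23 (SE 0.27) for Sp7, -0.25 (SE 0.26) for Runx3, -0.24 (SE 0.23) for Cbfb, 0.35 (SE 0.45) for Runx1 and -0.11 (SE 0.23) for Atf4, each with an adjusted p of 1.0 in edgeR. Cbfb in the 4 sections at E14.5 (246 to 285 CPM) lay above the 4 at E15.5 (211 to 239 CPM) without overlap, 1 factor of 6, where 4.97% of 9955 genes were apart in this way. The other 5 overlapped, and over all tissue none of the 6 was apart, where 9.57% of 10461 genes were.

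The difference of bone from other spots was also compared between stages, with an interaction term. Runx2 (-0.58, SE 0.21), Runx3 (-0.63, SE 0.22) and Sp7 (-0.54, SE 0.24) had the largest interaction terms (E15.5 minus E14.5), with adjusted p = 0.30, 0.28 and 0.39, and 0 of the 6 passed, where 1.42% of 13873 genes did.

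**Figure D5:**
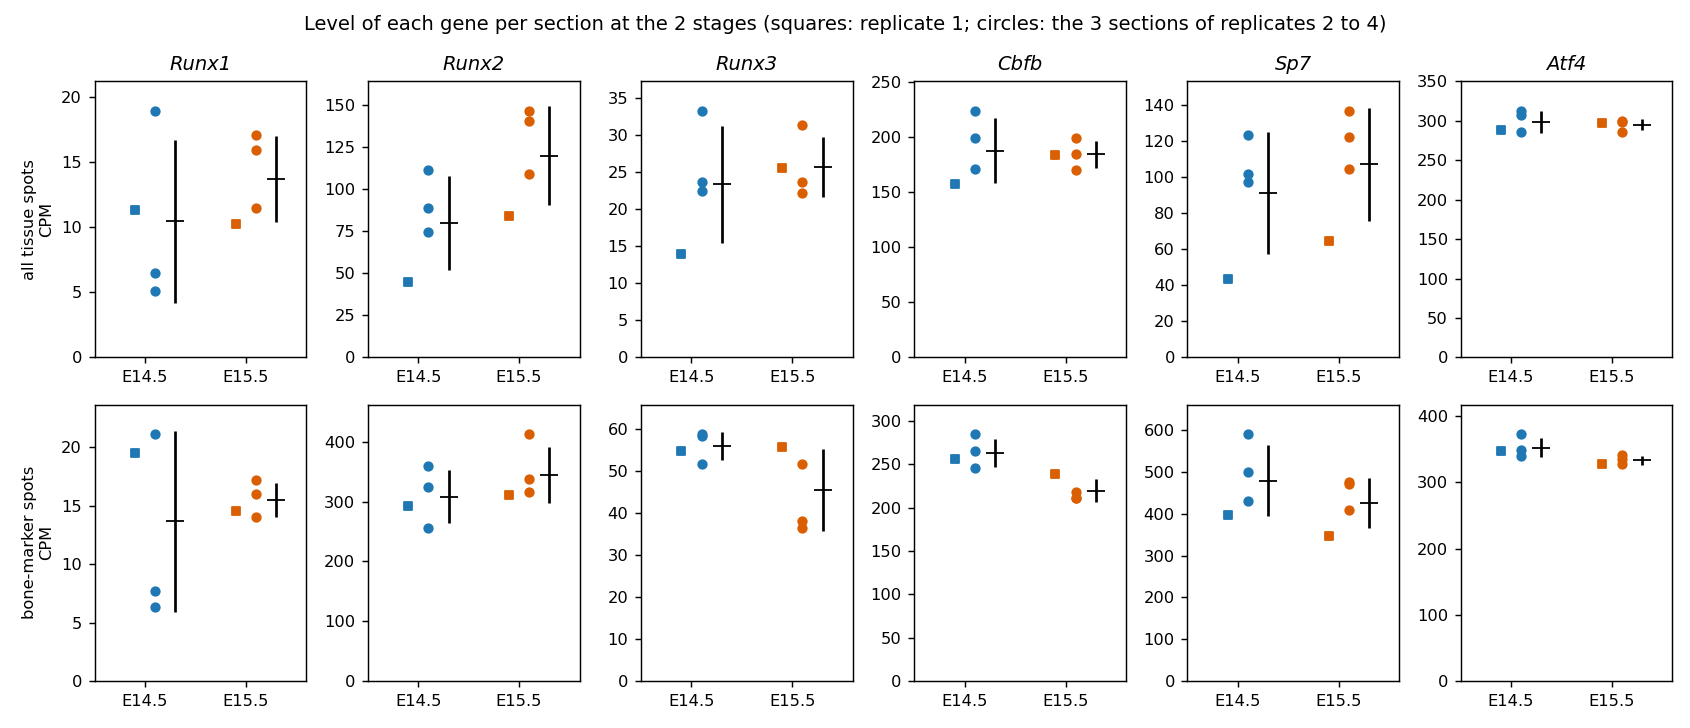
Level of each factor in CPM (axes from 0) per section at E14.5 and E15.5 over all tissue spots (top) and in bone-marker spots (bottom), with squares for replicate 1, circles for the sections of replicates 2 to 4, and black bars for the mean and SD of 4 sections. The stages overlap in every panel but that of Cbfb in bone-marker spots.

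The targets and partners of these factors were counted in the bone comparison, in which 25.0% of all genes passed as higher and 27.5% as lower. Of the 12 genes for bone matrix and mineral outside the bone markers, 10 were tested, 9 rose and none fell, with a median log2 fold change of 2.32 against -0.02 for all genes. They included Spp1 (osteopontin, 4.01), Mmp13 (a collagenase, 3.83), Phospho1 (a phosphatase that starts mineralization, 3.66) and Col1a1 (type I collagen, 2.65). The spots were themselves chosen by bone markers, so the rise of this list is no separate result about the factors. Of the 18 other regulators of osteoblasts, 17 were tested, 10 rose and 3 fell, and those that rose included Tcf7 (2.56), Dlx3 (2.5) and Fosl2 (1.14). Of the 15 amino acid response targets of Atf4, 14 were tested, 7 rose and 2 fell, with a median of 0.22. Chac1 (1.03), Sesn2 (0.75) and Aldh18a1 (0.62) rose and the cystine carrier Slc7a11 (-0.64) fell. Of the 7 receptors of sensory neurons, 1 rose and 5 fell, led by Ntrk3 (-1.32) and Ret (-1.02).

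The same lists were counted outside bone. The bone matrix and mineral genes counted 2 up and 1 down of 10 in cartilage, none up and 4 down in basal epithelium, and 1 up and 3 down in tooth germ, where 29.7%, 30.7% and 25.9% of all genes passed in either direction, so that these counts are near the background. More of these genes passed in palatal-oral mesenchyme (2 up and 4 down of 10) and cornifying epithelium (4 up and 3 down of 10). There 36.0% and 48.5% of all genes passed. The other regulators of osteoblasts counted 9 up and 1 down of 16 tested in tooth germ and 8 up and 2 down of 17 in palatal-oral mesenchyme, where 25.9% and 36.0% of all genes passed. In basal epithelium (30.7% of all genes) they counted 6 up and 4 down of 16. The counts were 6 up and 5 down of 17 in cornifying epithelium (48.5%) and 2 up and 2 down of 17 in cartilage (29.7%).

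Motifs that Runx proteins bind were also read in the promoters of 19 bone genes, the 7 bone markers and the 12 matrix and mineral genes. Of the 18 promoters listed for 15 of them, 7 (38.9%) held TGTGGT on either strand, against the 16.8% of all promoters given above. The windows of 3 of them are shown as examples, with the motif, here on the reverse strand, in capitals: Bglap (osteocalcin) at chr3:88384581-88384610 (minus strand), Mmp13 at chr9:7272384-7272413 (plus) and Spp1 at chr5:104434971-104435000 (plus).
Bglap: ccgcaatcacctACCACAgcatcctttggg
Mmp13: attctgccacaaACCACActtaggaagaaa
Spp1: tttttttttttaACCACAaaaccagaggag

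The motif begins 132, 118 and 128 bases before the start of Bglap, Mmp13 and Spp1. A match is a run of letters and not a bound site.

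Genes with the most similar maps were sought among 9680 genes by the mean, over the 4 areas, of Pearson's r across spots summed with their touching spots. The spots of an area share a library and overlap through this sum, so r is a description. Runx2 was most like Alpl (mean r 0.79), Panx3, Sp7 (0.78), Kazald1 and Tmem119. Sp7 was most like Ibsp (0.83), Panx3, Alpl, Ifitm5 and Phospho1 (0.80), and Runx2 was the sixth gene on its list. Runx3 was most like Pth1r (0.63), Cbr3, Tgfb1, Col1a1 and Creb3l1 (0.60). Cbfb was most like Trip6 (0.64), Dock1, Nfatc4, Dap and Itgb5 (0.61). The genes most like Runx1 included Gsc (0.55), Tmem30b, Synpo and Snai1 (0.53), with Runx2 in place 9. Atf4 had the lowest values, with Ddb1 (0.49) first and Oaz1 (0.45) last of its 5. Between the factors, mean r ran from 0.16 for Sp7 with Atf4 to 0.78 for Runx2 with Sp7.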

How the data were processed

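The 4 capture areas (2 per stage) were profiled by probe-based Visium. For each area the authors deposited a matrix of UMI counts and the array positions; its header names Space Ranger, in version 1.3.1 where the area holds 1 section and 2.0.0 where it holds 3. The submitters' processing notes name mm10. The 6357 tissue spots were used without a UMI filter. Spots were assigned to regions by mean z scores of log2(CPM + 100) over markers, with at least 3 markers detected and a score over 1, and no doublet caller was run since spots hold several cells. Counts were summed per area (and region) and tested with edgeR 4.0.16 (quasi-likelihood test, TMM, default filter, Benjamini-Hochberg, threshold 0.1), with DESeq2 1.42.0 as an alternative, on regions with 10 or more spots in an area. Exact sign-flip tests used scipy 1.17.1. Touching E15.5 sections were divided by eye along a line of array positions. Levels by section needed 5 spots. Genes named from lists are the up to 4 with the largest absolute change in bone, and the 5 most similar genes needed 10 CPM in every area. Some genes that meet these rules are not reported here. The scripts were tested on simulated data. The genes, lists and tests were chosen with earlier results of these data known. The contrasts in cornifying epithelium, palatal-oral mesenchyme and tooth germ, the interaction, the ratio tests (by section and by area), the top spots, the section overlap and the settings without bone-marker spots were added after seeing the data. Nothing in the labels says whether the sections came from separate embryos beyond their replicate numbers, so p-values measure the spread between these areas or sections. Protein sequences and a promoter of Sp7 are not shown here.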

Additional observations from a re-analysis of the deposited data

Results flagged for a closer look

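Of 72 groups of 4 sections of 1 stage, 1 gene and 1 region, 3 had a section farther from the other 3 than Dixon's 95% critical value allows, where chance alone gives about 1 in 20 groups. Sections of 1 area share a library, so their closeness to each other is in part shared. Runx1 in basal epithelium of E15.5 section C was 12.4 CPM, against 22.1 to 24.0 CPM in the other 3 sections. Sp7 in cornifying epithelium of E15.5 section B was 129 CPM, against 41.3 to 52.2 CPM. Runx2 in palatal-oral mesenchyme of E14.5 section C was 195 CPM, against 131 to 138 CPM.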

How the results depend on the processing

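Of 828 values recomputed under an alternative, 740 were classed as unchanged and 8 reversed (a change of sign where either value passed). Unchanged meant a count of calls within 1.5 times or still 0, or a level within 1 SD. For a fold change it meant the same side of the threshold, with a change of sign let through where neither value passed. Of the main counts or values 35 changed, and the cause was not tested. The stage comparison over all tissue called 28 genes with DESeq2 and from 0 to 78 without 1 area, the latter without E15.5 replicate 1. In bone-marker spots it called 3 with DESeq2, 14 without a low-count filter, 2 with sections as samples and from 3 to 11 without 1 area. No factor was called in any of them; where 1 area of a stage is left, it is assumed to vary like the other stage. Without 1 area, cartilage had from 1291 to 5100 calls (2 to 4 factors), basal epithelium 2522 to 4119 (1 to 4), cornifying epithelium 4183 to 7135 (1 to 3), palatal-oral mesenchyme 2431 to 4923 (1 to 3) and tooth germ 2252 to 3384 calls. The lowest of these counts were without E14.5 replicates 2 to 4 in cartilage, basal epithelium and palatal-oral mesenchyme, and without E15.5 replicate 1 in cornifying epithelium and tooth germ. Cartilage without E15.5 replicates 2 to 4 (1906) and palatal-oral mesenchyme without E15.5 replicate 1 (3040) also fell by more than 1.5 times. Tooth germ had 1948 calls (2 factors) with sections as samples. With bone-marker spots left out, 5 factors were called in basal epithelium (1991 of 13522 genes higher, 2483 lower). In cornifying epithelium 1 was called (2894 of 13632 genes higher, 4150 lower). With spots within 2 steps of bone left out, 5 were called in basal epithelium (1845 of 13231 genes higher, 2277 lower). In cornifying epithelium 2 were then called (2732 of 13307 genes higher, 3067 lower). These 2 settings turned Sp7 upward in cartilage (0.88, and 0.36 without passing), basal (0.63 and 0.74) and cornifying epithelium (0.38 and 0.75) and Runx2 in cornifying epithelium (0.016 and 0.26). The second turned Runx1 there (0.10). The Runx2 to Sp7 ring difference was 0.47 over areas and from 0.47 to 0.53 without 1 area. Thinned spots had a Runx2 UMI in 77.6% and a Sp7 UMI in 83.7%. The 2 areas of a stage were numbered 1 and 2 to 4, and same-numbered areas deviated together with r = 0.33 over all tissue and 0.004 in bone, so the numbers were not taken as a pairing. With the replicate block the stage comparison called 0 genes over all tissue and 18 in bone-marker spots, 8 up and 10 down, none of them a factor. The ganglion comparison and its alternatives were not run, and tooth germ without spots near bone was not, since 1 area alone kept 10 or more spots. The shallowest area, E14.5 replicate 1 at a median of 6752 UMIs per spot, gave 15 Runx1 UMIs in all of its bone-marker spots.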
